A study of Mus musculus with 6 samples.

Results

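Hox genes encode homeodomain transcription factors that stand side by side in 4 chromosomal clusters, Hoxa, Hoxb, Hoxc and Hoxd. Here their levels are described in the kidney of newborn mice, with and without activated Notch2 in the tubule epithelium. The genes were selected by name, as every row whose symbol is Hox, a cluster letter and a paralogue number. Of the table's 23669 rows, 39 carried such a symbol, and 35 of the 39 had a value (10 Hoxa, 9 Hoxb, 7 Hoxc and 9 Hoxd genes). Hoxa6, Hoxb13, Hoxc12 and Hoxc13 had no value in any library.

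RNA came from whole kidneys at postnatal day 3, and the labels give tissue, age and genotype. There were 3 samples labelled wild type and 3 labelled R26NICD2/+ Kspcre, called NICD2 here. R26NICD2 places the intracellular domain of Notch2, the part that enters the nucleus, at the Rosa26 locus. Kspcre expresses Cre recombinase from the Ksp-cadherin (Cdh16) promoter, a gene of kidney tubule epithelium. The labels do not say whether the wild type mice carried either allele, nor that each sample was taken from its own animal. Where they share an animal, p-values reflect technical spread. The title of the series poses the question of Notch2 activation in cyst growth.

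The values are FPKM, fragments scaled to transcript length and library size, as deposited by the authors. Being scaled to length, they allow levels of different genes to be set side by side, with a limit for overlapping genes. By their positions, 17 of the 35 Hox genes overlap the span of another (Hoxd10 with Hoxd9 and Hoxd11, Hoxb3 with Hoxb4, Hoxa9 with Hoxa10, Hoxb8 with Hoxb9 and Hoxb5 with Hoxb6 among them), and no source used here says how shared reads were divided. Their ranks are uncertain to that extent, while Hoxd8, Hoxb7, Hoxa11 and all Hoxc genes overlap no other Hox gene. Hoxd8 and Hoxa11 do overlap antisense genes (Hoxd3os1 and Hoxa11os), and how strand was treated is not given either. Libraries held an estimated 16000000 to 16900000 fragments, and 13568 to 13784 genes reached 1 FPKM in each. The human Notch2 row, which reports the transgene, was at 0 to 0.03 FPKM in wild type and at 60.17 to 79.59 FPKM in NICD2, and the labels held in all 6 libraries. Adrenal markers (Cyp11a1, Star, Cyp11b1, Nr5a1, Th) summed to 57.46, 64.41 and 3.49 FPKM in wild type replicates 1, 2 and 3 and to 1.91, 63.95 and 61.6 FPKM in NICD2. The Y-linked genes Uty, Kdm5d, Ddx3y and Eif2s3y were listed at 0 FPKM in NICD2 replicate 3 alone, and at 4.56 FPKM or more in the other 5 libraries. Kidney epithelium markers (Cdh16, Pax8, Pax2, Lhx1, Epcam) summed to 530.98 to 549.63 FPKM in wild type and 459.17 to 537.74 FPKM in NICD2.

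Within a cluster the genes are numbered by paralogue group, from 1 at the end that is active first and furthest forward in the embryo to 13 at the end that marks the hindmost body. Genes with the same number in different clusters descend from 1 ancestral gene and often act in place of each other. In the kidney the genes of paralogue group 11 are known to be needed together for the metanephric mesenchyme to call out the ureteric bud. They act there with Eya1 and Pax2 on Six2 and Gdnf, and those of group 10 are known for a role in the kidney stroma. Hox proteins bind DNA with cofactors of the Pbx and Meis families, and Polycomb complexes keep the clusters silent where they are not used.

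The clusters also hold miRNA genes of the miR-196 and miR-10 families, which are known to bind Hox transcripts. Their mature forms are shown because each family shares a seed (bases 2 to 8, in capitals) that can be searched for in the genes described here. The sequences are those of RefSeq on GRCm38.p6. The miRNAs themselves were not analysed here.
miR-196a-5p (Mir196a-2, in Hoxc, chr15:102973365-102973386, plus strand): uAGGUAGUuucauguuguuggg
miR-196b-5p (Mir196b, in Hoxa, chr6:52230129-52230150, minus strand): uAGGUAGUuuccuguuguuggg
miR-10a-5p (Mir10a, in Hoxb, chr11:96317186-96317208, plus strand): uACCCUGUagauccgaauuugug
miR-10b-5p (Mir10b, in Hoxd, chr2:74726074-74726096, plus strand): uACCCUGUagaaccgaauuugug
The copy Mir196a-1 in Hoxb gives the same mature sequence as Mir196a-2.

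The match to the miR-196 seed, ACTACCT on the transcript's strand, was present in the longest annotated 3′UTR (GENCODE M21) of 7 of 29 Hox genes tested below: Hoxa4, Hoxa5, Hoxa7, Hoxa9, Hoxb6, Hoxb7 and Hoxc8. Among all 12696 tested genes with such a UTR, 859 (6.8%) held it. Hoxa7 and Hoxc8 are the members of this group that also fell in NICD2 kidneys, as described below, so their sites are shown with the match in capitals.
Hoxa7 site (chr6:52215400-52215422, minus strand): aggcacagccaaaatACTACCTa
Hoxa7 site (chr6:52215363-52215385, minus strand): gagaggcactcccaaACTACCTa
Hoxa7 site (chr6:52215231-52215253, minus strand): caaaccatgatcaatACTACCTa
Hoxa7 site (chr6:52215210-52215232, minus strand): tactactagccctaaACTACCTa
Hoxc8 site (chr15:102992975-102992997, plus strand): acactcacaactctaACTACCTg
Hoxc8 site (chr15:102993732-102993754, plus strand): ataaatctttaacatACTACCTa
The match to the miR-10 seed, ACAGGGT, was in Hoxa3 and Hoxb3 among the tested Hox genes, and in 1844 (14.5%) of all 12696. A match is a description of these letters and not of binding.

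In wild type kidney Hox transcripts lay mainly in the middle and the 5′ part of the clusters. The 35 genes summed to 703.72 ± 42.16 FPKM (SD, n = 3). The 10 genes of paralogue groups 5 to 8 held 269.83 ± 14.99 FPKM of this and the 10 genes of groups 9 to 11 held 286.87 ± 19.47 FPKM. Groups 1 to 4 held 146.81 ± 9.13 FPKM, and groups 12 and 13 only 0.21 ± 0.04 FPKM. By single group, 8, 9 and 10 were highest with sums of 143.79 ± 6.0, 131.54 ± 9.36 and 127.50 ± 7.97 FPKM, and group 11 reached 27.83 ± 2.43 FPKM. By cluster, the 9 Hoxb genes summed to 246.42 ± 15.65 FPKM and the 9 Hoxd genes to 231.38 ± 12.66 FPKM. The 10 Hoxa genes came to 157.32 ± 11.32 FPKM and the 7 Hoxc genes to 68.60 ± 4.28 FPKM.

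**Figure D1:**
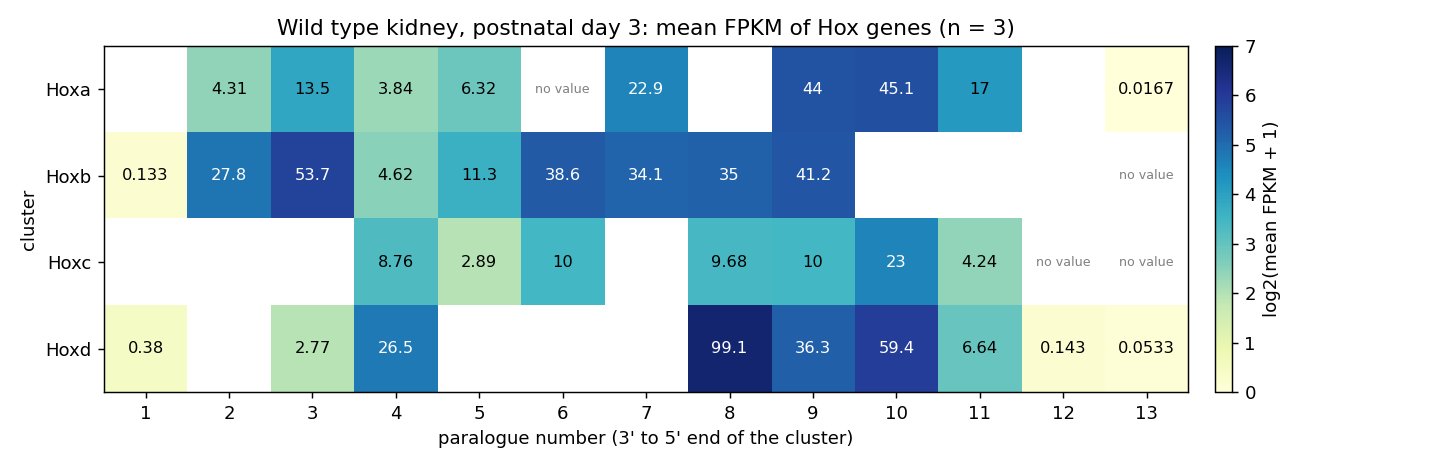
Mean FPKM of Hox genes in 3 wild type kidneys, by cluster (rows) and paralogue number (columns), with colour on a log2(FPKM + 1) scale; blank squares have no gene of that number or are not shown. The values shown for groups 1, 12 and 13 are near 0, and Hoxd8 is highest with a mean of 99.1 FPKM.

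Hoxd8 stood above all other members. It was at 101.24, 97.01 and 99.16 FPKM in the 3 wild type libraries, and no value of another Hox gene reached these. Hoxd10, of the paralogue group known in the stroma, followed at 64.86, 54.36 and 59.04 FPKM. Its values overlapped those of Hoxb3 at 56.52, 51.88 and 52.80 FPKM, though Hoxd10 lay above Hoxb3 in every wild type library. Both genes overlap the span of another Hox gene, so their order stays uncertain to that extent. Hoxb3 is a gene of the 3′ part of its cluster, and Hoxb4 beside it (4.62 ± 1.24 FPKM) and Hoxb1 at the 3′ end (0.133 ± 0.038 FPKM) lay far below it.

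A run of 7 genes came next, from Hoxa10 (45.1 ± 2.1 FPKM) through Hoxa9, Hoxb9, Hoxb6, Hoxd9 and Hoxb8 to Hoxb7 (34.1 ± 0.4 FPKM). Each of them overlapped the next in its wild type values. Hoxb7, whose promoter is widely used to mark the ureteric bud and collecting duct, was at 34.14, 33.67 and 34.50 FPKM. Below this run the wild type values did not overlap, and Hoxb2 (27.8 ± 1.7 FPKM), Hoxd4 (26.5 ± 1.8 FPKM), Hoxc10 (23.0 ± 2.4 FPKM) and Hoxa7 (22.9 ± 1.7 FPKM) formed a further group of overlapping neighbours. Hoxc10 was the single Hoxc gene above 20 FPKM, at 22.96, 20.57 and 25.43 FPKM. Hoxc9, Hoxc6, Hoxc8 and Hoxc4 lay together at 8.76 to 10.03 FPKM on average.

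Paralogue group 11, named above for the induction of the kidney, was uneven. Hoxa11 was at 18.36, 15.36 and 17.16 FPKM in wild type, Hoxd11 at 6.50, 6.35 and 7.06 FPKM, and Hoxc11 at 5.44, 3.73 and 3.54 FPKM. All wild type values of Hoxa11 lay above those of both paralogues. In group 10 Hoxc10 lay below Hoxa10 and Hoxd10 in every wild type library.

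The ends of the clusters were close to silent. Genes with a value that did not pass the filter for testing (3 or more libraries with 1 FPKM or more) included Hoxb1, Hoxd1, Hoxd12, Hoxa13 and Hoxd13. Hoxd1 was at 0.53, 0.24 and 0.37 FPKM in wild type and 0.27, 0.21 and 0.27 FPKM in NICD2, and these values overlapped. Hoxa13, which patterns digits and the hindmost gut and urogenital tract, was listed at 0.05 FPKM in wild type replicate 1, an estimated 1.0 fragment, and at 0 in the other 5 libraries. Hoxd13, its paralogue, corresponded to an estimated 0 to 4.0 fragments per library. At this depth no difference between the groups could be seen for these genes.

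The question for the comparison of genotypes is which Hox genes differ between NICD2 and wild type kidneys. In NICD2 kidneys 5 Hox genes fell and none rose, and 4 of the 5 were Hoxc genes. These were Hoxc4, Hoxc6, Hoxc8 and Hoxc9, with Hoxa7 as the fifth. The differences were modest, with fold changes on the log2(FPKM + 1) scale of -0.28 to -0.57. The 29 genes that passed the filter (8 Hoxa, 8 Hoxb, 7 Hoxc and 6 Hoxd) were tested with limma among all 13765 genes that passed it, with Benjamini-Hochberg adjustment over all of them and a threshold of 0.05.

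Across all genes tested 1210 were called (8.79%), 531 of them lower (3.86%) and 679 higher (4.93%). The 5 of 29 Hox genes called lower are to be read against the 3.86%, and the 0 of 29 called higher against the 4.93%. At an unadjusted p under 0.05 limma gave 12 of 29 Hox genes, all of them lower, where 25.1% of all genes were past it in either direction. Values of the groups did not overlap for 12 of 29 Hox genes, all with NICD2 lower, beside 15.5% of all genes that separated in this direction and 15% in the other. On the log2 scale 26 of 29 had a lower mean in NICD2, where 51.8% of all genes did, and the median fold change was -0.16, where that of all genes was -0.01. In a bulk sample fewer cells of a type and less RNA per cell cannot be told apart.

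The authors' deposited table holds their own DEGseq comparison and gives 19 Hox genes lower and 3 higher at q under 0.05, of 34 Hox genes with a q. There, 26% of all genes with a q are lower and 22.9% higher. The 3 higher genes in the authors' deposited table are Hoxb2, Hoxb8 and Hoxd4.

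**Figure D2:**
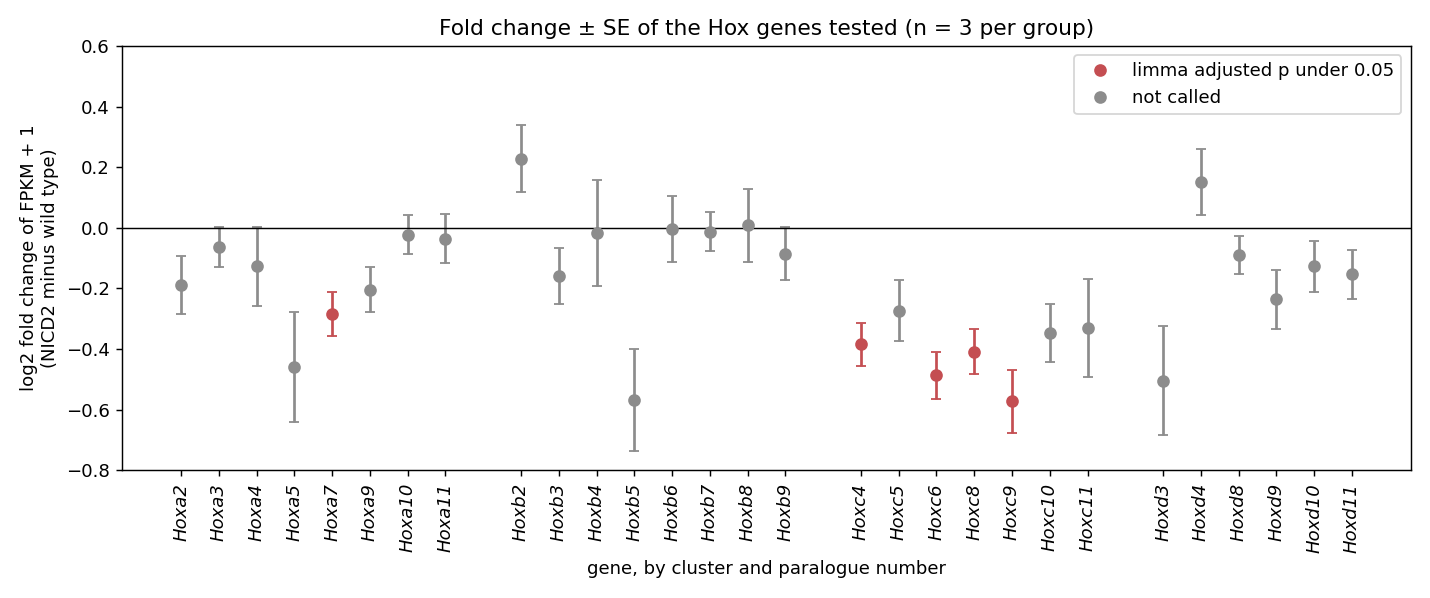
Fold change of each tested Hox gene between NICD2 and wild type on the log2(FPKM + 1) scale, with its standard error, ordered by cluster and paralogue number (n = 3 per group); red points were called by limma. All 7 Hoxc points lie between -0.57 and -0.27, and points of the Hoxb cluster spread around 0, with Hoxb5 lowest at -0.57.

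The Hoxc genes are known for patterning the trunk skeleton and motor neurons, and in this cluster all 7 means were lower in NICD2. Hoxc6 (chr15:102998226-103011882, GRCm38) was at 10.36, 10.20 and 9.48 FPKM in wild type and 7.46, 6.74 and 6.40 FPKM in NICD2. The groups were apart, and the fold change was -0.49 (SE 0.08, limma adjusted p = 0.00669). Hoxc9 (chr15:102973653-102984472) was at 11.69, 9.64 and 8.77 FPKM in wild type and 6.59, 6.59 and 5.97 FPKM in NICD2. Wild type replicate 1 was its highest library, but every wild type value lay above every NICD2 value. Its fold change was -0.57 (SE 0.10, limma adjusted p = 0.0113).

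Hoxc8 (chr15:102990539-102994254), which carries miR-196 matches shown above, was at 10.53, 9.30 and 9.22 FPKM in wild type and 6.95, 7.22 and 6.95 FPKM in NICD2. An estimated 261 to 379 fragments per library lay behind these values, and the groups were apart. Its fold change was -0.41 (SE 0.07, limma adjusted p = 0.0121). Hoxc4 (chr15:103018099-103036856), the member at the 3′ end of the cluster, was at 9.28, 8.52 and 8.47 FPKM in wild type and 6.69, 6.45 and 6.27 FPKM in NICD2. The NICD2 libraries differed little among themselves and all lay below wild type. Its fold change was -0.38 (SE 0.07, limma adjusted p = 0.0127). These 4 genes passed the threshold under all 13 alternative settings, with highest adjusted p of 0.0379 to 0.0474.

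The other Hoxc genes did not pass the test. Hoxc10 was at 19.70, 17.64 and 16.18 FPKM in NICD2, below the wild type values given above. Its fold change was -0.35 (SE 0.10, limma adjusted p = 0.0614). Of 13 alternatives 3 gave a call. These were a stricter filter (0.0487), limma's robust option (0.0431) and a term for the libraries low in adrenal markers (0.0244). With a library left out Hoxc10 was never called (limma adjusted p 0.0561 to 0.155). Hoxc5 was at 2.88, 2.68 and 3.10 FPKM in wild type and 1.94, 2.36 and 2.36 FPKM in NICD2, apart but with a limma adjusted p of 0.129. Hoxc11 was at 3.82, 2.49 and 3.14 FPKM in NICD2 and overlapped wild type, with a limma adjusted p of 0.249. Wild type replicate 1 and NICD2 replicate 1 were the high libraries for Hoxc11 in their groups.

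**Figure D3:**
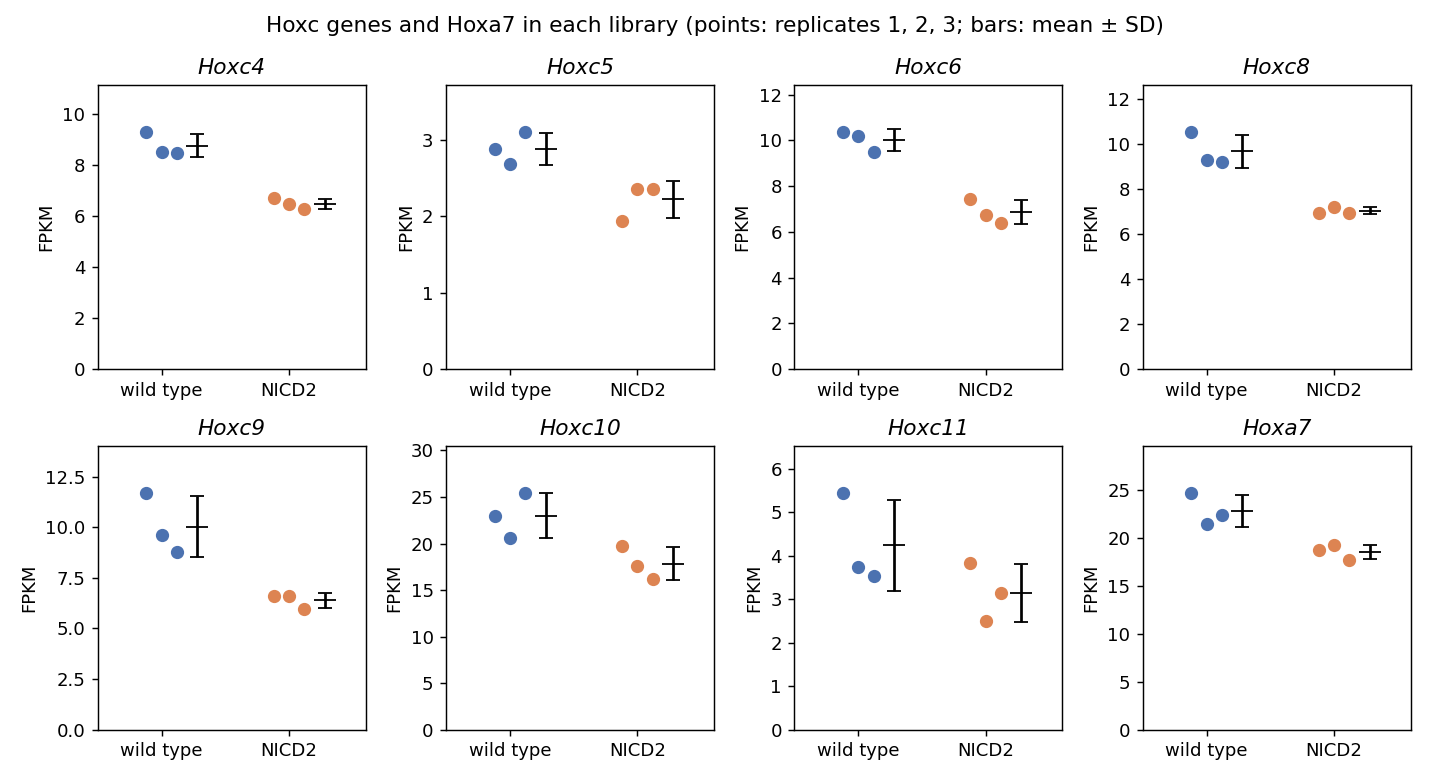
FPKM of the 7 Hoxc genes and Hoxa7 in each library; points are replicates 1, 2 and 3 from left to right, and bars give the mean ± SD of 3. Groups are apart for Hoxa7 and for each Hoxc gene except Hoxc11, where NICD2 replicate 1 (3.82 FPKM) lies above wild type replicates 2 and 3 (3.73 and 3.54 FPKM).

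As a sum the Hoxc cluster went from 73.14, 64.64 and 68.01 FPKM in wild type to 53.15, 49.49 and 47.27 FPKM in NICD2, which is 72.8% of the wild type mean. The other clusters together were at 94.1% (635.13 ± 37.94 FPKM in wild type and 597.87 ± 47.99 FPKM in NICD2). Hoxc genes made up 9.74%, 9.65% and 9.86% of the summed Hox FPKM in wild type and 7.61%, 7.63% and 7.92% in NICD2. The 3 shares of each group lay close together and the groups were apart. The shares of Hoxa, Hoxb and Hoxd overlapped between the groups. The median fold change was -0.385 over the 7 Hoxc genes, -0.157 over 8 Hoxa genes, -0.140 over 6 Hoxd genes and -0.015 over 8 Hoxb genes. The sums and medians are descriptions without a test.

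**Figure D4:**
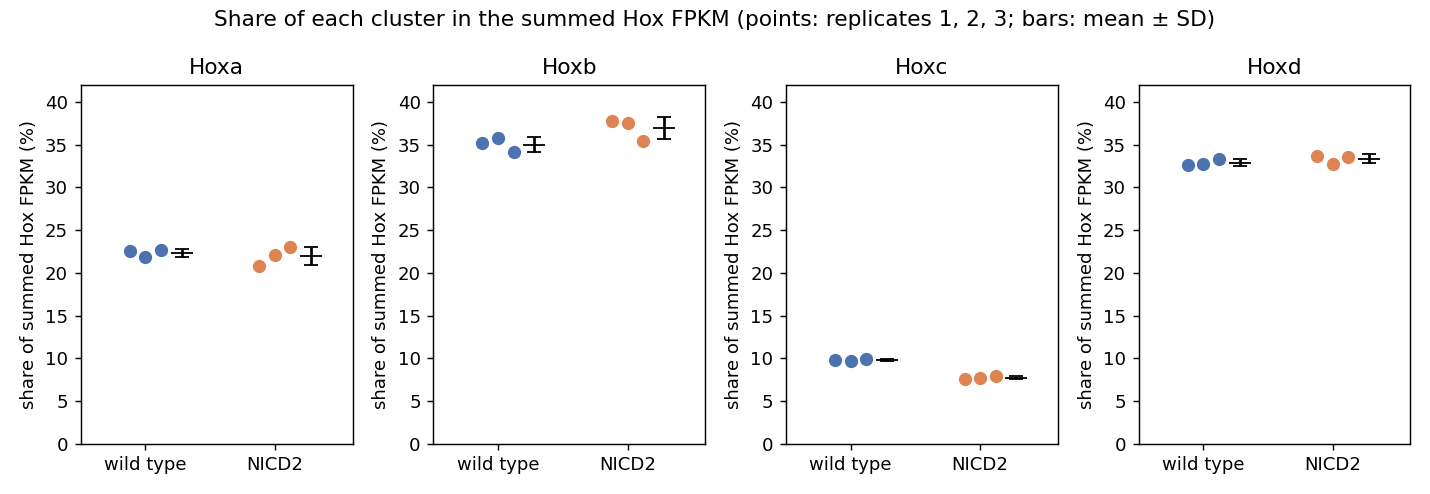
Share of each cluster in the summed FPKM of all 35 Hox genes, in percent, by library; points are replicates 1, 2 and 3 and bars give the mean ± SD of 3. The Hoxc share is 9.65% to 9.86% in wild type and 7.61% to 7.92% in NICD2, and the shares of the other clusters overlap between the groups.

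The difference in adrenal markers between libraries falls across the groups, with wild type replicate 3 and NICD2 replicate 1 low. Over the 4 libraries with adrenal markers the median fold change of the 7 Hoxc genes was -0.43, and between the low libraries, 1 of each group, it was -0.35. Within the 4 all 7 Hoxc genes were lower in NICD2, and between the low libraries 6 were lower and Hoxc11 was higher (0.09). Hoxc9 differed by -0.68 and -0.36 and Hoxc6 by -0.58 and -0.31 in these comparisons, which have no test of their own. Outside Hoxc the direction turned for some genes, among them Hoxb8 (-0.182 and 0.389), Hoxb6 (-0.16 and 0.307) and Hoxb9 (-0.185 and 0.113). Others kept theirs, such as Hoxa7 (-0.304 and -0.246) and Hoxd3 (-0.498 and -0.516).

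Markers of cell types moved with genotype in these whole kidneys, in both directions. The counts below stand beside 3.86% of all genes called lower and 4.93% called higher. Podocyte markers fell in 5 of 6 tested (summed 317.74 to 356.88 FPKM in wild type, 235.22 to 249.74 FPKM in NICD2), principal cell markers in 5 of 7 (323.72 to 355.06 and 144.17 to 170.35 FPKM) and intercalated cell markers in 6 of 7 (106.34 to 110.02 and 10.12 to 15.85 FPKM). Proximal tubule markers fell in 2 of 6 tested (1504.87 to 1681.18 and 974.70 to 1154.36 FPKM) and endothelial markers in 2 of 5 (236.45 to 259.57 and 190.60 to 210.76 FPKM). Of 4 loop of Henle markers tested Umod rose (limma fold change 1.55) and Bsnd fell. The summed list went from 263.89 to 294.41 FPKM in wild type to 414.92 to 520.37 FPKM in NICD2. Umod alone carried this rise (mean 114.3 FPKM in wild type and 336.7 FPKM in NICD2). Slc12a1 and Cldn16 also had lower means in NICD2, and the median fold change of the 4 was -0.28. Ureteric bud markers held 1 call in each direction among 5 tested, Wnt9b higher and Gfra1 lower. Their sums overlapped (55.40 to 60.14 and 56.81 to 62.11 FPKM). Of 5 urothelium markers Upk1a rose and Upk1b and Upk3a fell, with overlapping sums (32.66 to 68.89 and 37.66 to 66.61 FPKM). None of 4 immune markers tested was called by limma, and none had an unadjusted p under 0.05. Of 9 stroma markers tested Foxd1, the gene of stromal progenitors, fell (5.11, 5.06 and 4.39 against 3.56, 3.46 and 3.31 FPKM, limma adjusted p = 0.0250), and the median fold change of the 9 was -0.24. At an unadjusted p under 0.05 limma gave 5 of the 9 lower (Foxd1, Pdgfrb, Pdgfra, Dcn and Lum) and Penk higher. Over all genes 25.1% were past it in either direction. The summed stroma list, in which Penk and Col1a1 have the highest values, overlapped (732.77 to 852.68 and 725.41 to 801.08 FPKM). Foxd1 was called in 7 of 13 alternatives and lost without a filter (0.0576) and without any 1 library except wild type replicate 3 (0.0604 to 0.104). The part of these shifts in the Hoxc result was not tested.

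Of the Hoxa genes, Hoxa7 fell. It was at 24.69, 21.48 and 22.37 FPKM in wild type and 18.70, 19.23 and 17.74 FPKM in NICD2, with the groups apart. Its fold change was -0.28 (SE 0.07, limma adjusted p = 0.0438). The call was lost whenever a library was left out (adjusted p 0.0723 to 0.125), without a filter (0.0658) and with the adrenal term (0.0601). The table's span of Hoxa7 (chr6:52201754-52222364) overlaps Hoxa3, Hoxa5 and Hoxa6 and the antisense gene Hoxaas3, so its reads cannot be told from theirs with certainty. Of the 35 Hox genes 15 overlap an antisense gene, but none of the 7 Hoxc genes does.

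Hoxa9, known with Meis1 from leukaemia, was at 45.92, 39.63 and 46.33 FPKM in wild type and 38.94, 37.69 and 37.25 FPKM in NICD2, apart but with a limma adjusted p of 0.125. Hoxa5, known for lung development, was at 8.75, 4.66 and 5.56 FPKM in wild type and 4.01, 4.65 and 3.92 FPKM in NICD2. The groups were apart by 0.01 FPKM, wild type replicate 1 stood high, and the limma adjusted p was 0.155. Hoxa10 was at 47.41, 44.38 and 43.49 FPKM in wild type and 46.54, 42.84 and 43.80 FPKM in NICD2. These values overlapped and gave a fold change of -0.02 (SE 0.06, limma adjusted p = 0.871).

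In the Hoxb cluster limma called no gene at an adjusted p under 0.05, and at an unadjusted p under 0.05 it gave 1, Hoxb5. Hoxb5 was at 13.82, 9.66 and 10.31 FPKM in wild type and 7.75, 8.70 and 5.47 FPKM in NICD2. The groups were apart with a fold change of -0.57 (SE 0.17), as large as that of Hoxc9 but with a wider spread (limma adjusted p = 0.0756). All 3 members of paralogue group 5 (Hoxa5, Hoxb5, Hoxc5) had groups apart with NICD2 lower, beside 15.5% of all genes. Their sum was at 67.0% of wild type, though none was called.

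Over all 6 libraries the abundant Hoxb genes differed little between the groups. Hoxb3 was at 54.24, 48.39 and 42.12 FPKM in NICD2, overlapping wild type (limma adjusted p = 0.326). Hoxb9 was at 44.16, 40.87 and 38.62 FPKM in wild type and 41.85, 40.31 and 34.44 FPKM in NICD2. Hoxb6 was at 41.74, 39.43 and 34.65 FPKM in wild type and 43.11, 40.10 and 32.69 FPKM in NICD2, with a fold change of -0.0041 (SE 0.110). Both overlapped between the groups, and Hoxb7, the ureteric bud gene, had a fold change of -0.01 (SE 0.06). Hoxb2 had the highest fold change of all Hox genes tested, 0.23 (SE 0.11, limma adjusted p = 0.241), from 28.97, 25.78 and 28.56 FPKM in wild type and 35.96, 35.69 and 27.11 FPKM in NICD2. NICD2 replicate 3 lay within the wild type range, and without it Hoxb2 passed the threshold (0.36, limma adjusted p = 0.0356).

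In the Hoxd cluster limma called no gene, and at an unadjusted p under 0.05 it gave Hoxd3 and Hoxd9. Hoxd8 was at 98.90, 92.35 and 88.14 FPKM in NICD2, overlapping wild type, with a fold change of -0.09 (SE 0.06, limma adjusted p = 0.422). Hoxd10 was at 58.23, 54.59 and 50.09 FPKM in NICD2 and overlapped too (limma adjusted p = 0.395). Hoxd9 was at 40.32, 34.10 and 34.56 FPKM in wild type and 34.86, 28.85 and 28.55 FPKM in NICD2. For Hoxd9 NICD2 replicate 1 lay among the wild type values, and the limma adjusted p was 0.175. Hoxd3 was at 3.23, 2.63 and 2.46 FPKM in wild type and 1.42, 2.53 and 1.18 FPKM in NICD2. Without NICD2 replicate 2, which lay within the wild type range, its limma adjusted p went from 0.122 to 0.0234. Hoxd4, which shares part of its span with Hoxd3, was at 27.76, 24.50 and 27.28 FPKM in wild type and 35.34, 27.50 and 26.46 FPKM in NICD2 (limma adjusted p = 0.434).

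The paralogues that induce the kidney were not called. Hoxa11 was at 17.09, 16.99 and 15.40 FPKM in NICD2, all within the wild type range, with a fold change of -0.04 (SE 0.08, limma adjusted p = 0.828). Hoxd11 was at 6.17, 6.08 and 5.37 FPKM in NICD2. All 3 lay below wild type, with a fold change of -0.15 (SE 0.08, limma adjusted p = 0.285). Paralogue group 11 as a sum was at 91.7% of wild type.

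Libraries of a group also differed from each other in Hox level as a whole. Wild type replicate 1 was the highest wild type library for 24 of 29 tested Hox genes, by a median of 0.11 on the log2 scale from the group mean, where the median over all genes was 0.01. NICD2 replicate 1 was highest in its group for 20 and NICD2 replicate 3 lowest for 22. Wild type replicate 1 was also high in urothelium markers, with a sum of 68.89 FPKM against 32.66 and 33.82 FPKM. Each listed marker was highest there in its group. NICD2 replicate 1 had a sum of 66.61 FPKM against 37.66 and 42.14 FPKM, of which Upk1a made up 54.43 FPKM. Upk2 and Krt5 were also highest there in their group, but Upk1b and Upk3a were not. The part of these in the Hox levels was not tested. The 4 Hoxc calls were present with wild type replicate 1 or NICD2 replicate 1 left out singly, but each such fit kept the other library.

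Cofactors of the Hox proteins are TALE homeodomain factors, and all 9 listed were tested. Meis2 fell and the other 8 were not called, where 3.86% of all genes were called lower. At an unadjusted p under 0.05 limma gave 4 of the 9, all lower, beside 25.1% of all genes in either direction. The median fold change was -0.17, beside -0.01 for all genes. Meis2 was at 49.13, 48.73 and 52.21 FPKM in wild type and 39.31, 42.94 and 39.18 FPKM in NICD2. The groups were apart, with a fold change of -0.30 (SE 0.06, limma adjusted p = 0.0235), and 8 of 13 alternatives gave the call. Leaving out wild type replicate 2, wild type replicate 3, NICD2 replicate 1 or NICD2 replicate 3 ended it (limma adjusted p 0.0664 to 0.0936). Meis1 was at 21.11, 18.22 and 18.29 FPKM in wild type and 14.55, 15.98 and 15.85 FPKM in NICD2, apart with a limma adjusted p of 0.0528. Pbx2 was at 28.29, 25.70 and 27.44 against 24.77, 22.84 and 22.84 FPKM (limma adjusted p = 0.1), with the groups apart.

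**Figure D5:**
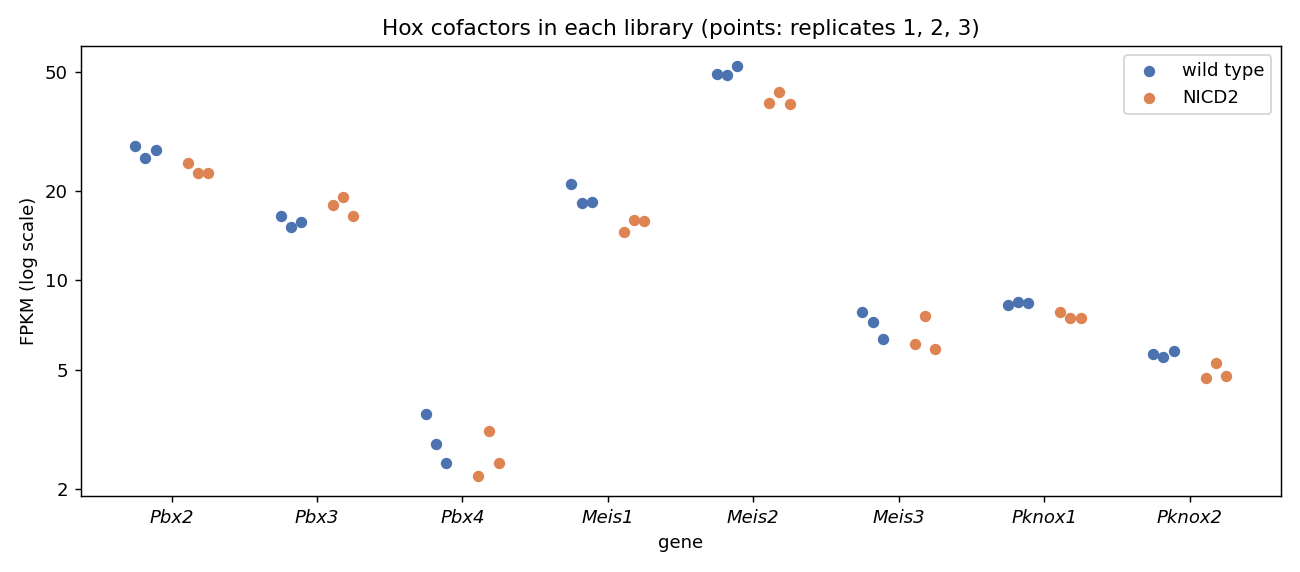
FPKM of 8 Hox cofactors of the Pbx, Meis and Pknox families in each library, on a log axis; points are replicates 1, 2 and 3. Meis2 is at 48.73 to 52.21 FPKM in wild type and 39.18 to 42.94 FPKM in NICD2, and Pbx3 is the single cofactor plotted with a higher mean in NICD2 (15.8 and 17.8 FPKM).

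Regulators known to act upstream of the Hox clusters were listed as well. The retinoic acid receptors Rarb and Rarg had NICD2 lower with groups apart, beside 15.5% of all genes, but were not called (limma adjusted p = 0.0530 and 0.115). The receptor gene Rara overlapped between the groups, with a fold change of -0.04 (SE 0.10, limma adjusted p = 0.850). Cdx1, Cdx2, Egr2 and Lin28b were below the filter, and Cdx4 had no value. Hoxa3, in the 3′ part of the Hoxa cluster, was at 13.73, 13.34 and 13.45 FPKM in wild type and 12.86, 13.62 and 12.20 FPKM in NICD2, and the groups overlapped.

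Chromatin regulators of the clusters showed no call by limma. Of 18 Polycomb genes tested none passed. At an unadjusted p under 0.05 there were 4, all lower, beside 25.1% of all genes in either direction, so this count is near the background share. Pcgf2, a PRC1 subunit whose loss derepresses Hox genes, was at 36.87, 34.37 and 34.51 FPKM in wild type and 29.59, 31.16 and 27.59 FPKM in NICD2 (limma adjusted p = 0.0528). It passed the threshold with a stricter filter (0.0484), with median-ratio scaling (0.0499) and with the robust option (0.0471). Those were 3 of 13 alternatives, and with a library left out Pcgf2 was never called (limma adjusted p 0.0646 to 0.151). Jarid2, Ezh1 and Bmi1 followed with limma adjusted p of 0.0536, 0.0865 and 0.193. Of 10 trithorax and H3K27 demethylase genes none passed, and none had an unadjusted p under 0.05. The median fold change was -0.06 over the Polycomb list and -0.01 over the trithorax and demethylase list.

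Of 17 genes that flank the clusters 12 were tested and Calcoco1, which lies beyond the Hoxc13 end of the Hoxc cluster, fell. It was at 42.58, 39.99 and 35.47 FPKM in wild type and 31.22, 27.59 and 30.14 FPKM in NICD2, with a fold change of -0.39 (SE 0.08, limma adjusted p = 0.0213). The call was lost without wild type replicate 1 (0.0518), wild type replicate 2 (0.0855) or NICD2 replicate 2 (0.0713). Hibadh and Skap2, on opposite sides of the Hoxa cluster, were higher in all NICD2 libraries than in any of wild type, beside 15% of all genes. They were not called (limma adjusted p = 0.0603 and 0.0787). At an unadjusted p under 0.05 limma gave 4 of the 12 higher and 1 lower, beside 25.1% of all genes in either direction. The median fold change of the 12 was 0.115.

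Of 7 partners and targets of the group 11 proteins in the mesenchyme 5 were tested, and Pax2 and Sall1 fell. Pax2, which acts with them and is also expressed in ureteric epithelium, was at 48.83, 41.82 and 42.61 FPKM in wild type and 35.12, 30.71 and 31.34 FPKM in NICD2. Its fold change was -0.44 (SE 0.08, limma adjusted p = 0.0125). Sall1, a progenitor factor, was at 27, 27.27 and 30.56 against 23.16, 19.38 and 19.49 FPKM, with a fold change of -0.44 (SE 0.09, limma adjusted p = 0.0175), and leaving out wild type replicate 2, wild type replicate 3, NICD2 replicate 2 or NICD2 replicate 3 ended its call (0.0535 to 0.0623). Eya1 was at 1.24, 1.58 and 1.61 against 1.16, 0.82 and 1.10 FPKM (limma adjusted p = 0.183), and Gdnf at 1.17, 1.62 and 1.88 against 1.21, 1.2 and 1.16 FPKM (limma adjusted p = 0.342). The median fold change of the 5 was -0.29. Six2, the progenitor gene, did not pass the filter at 1.51, 1.05 and 0.99 against 0.57, 0.70 and 0.46 FPKM. Of 8 nephron progenitor markers tested 1 fell, Sall1, and the list summed to 99.98 to 101.51 FPKM in wild type and 86.91 to 92.52 FPKM in NICD2.

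Promoters, from 250 bases before to 50 after the start, were found for 21 of the Hox genes (23 promoters, RefSeq on GRCm38.p6), among them Hoxa7 and Hoxc4 of the genes that fell. They were searched on both strands for TGGGAA, the core of the site of RBPJ, the DNA-binding partner of the Notch intracellular domain. It was present in 4 of 23 Hox promoters (17.4%; Hoxa3, Hoxa9, Hoxa13 and Hoxd3) and in 25.6% of all 32851 promoters. The TATAAA box was in 4 (17.4%; Hoxa10, Hoxb8, Hoxd4 and Hoxd13) and in 13.6% of all. Hox promoters held a median of 14 CpG pairs, and all promoters 7. The promoters of Hoxa7 and Hoxc4 hold no match in these windows. Both windows lie inside the span given for the gene (chr6:52201754-52222364 and chr15:103018099-103036856) and not at its outer start. Hoxa7 is listed with 6 transcripts and Hoxc4 with 9, and other starts of these genes were not searched. The promoter of Hoxd3 is shown because it holds 2 matches, in capitals, on the opposite strand. None of these letters shows binding.
Hoxc4 promoter (chr15:103034145-103034444, plus strand): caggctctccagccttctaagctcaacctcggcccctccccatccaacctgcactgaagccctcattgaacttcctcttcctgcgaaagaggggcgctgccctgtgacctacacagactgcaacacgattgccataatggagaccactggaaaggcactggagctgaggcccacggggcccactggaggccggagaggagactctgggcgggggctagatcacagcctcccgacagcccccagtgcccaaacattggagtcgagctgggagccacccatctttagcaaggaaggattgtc
Hoxa7 promoter (chr6:52218524-52218823, minus strand): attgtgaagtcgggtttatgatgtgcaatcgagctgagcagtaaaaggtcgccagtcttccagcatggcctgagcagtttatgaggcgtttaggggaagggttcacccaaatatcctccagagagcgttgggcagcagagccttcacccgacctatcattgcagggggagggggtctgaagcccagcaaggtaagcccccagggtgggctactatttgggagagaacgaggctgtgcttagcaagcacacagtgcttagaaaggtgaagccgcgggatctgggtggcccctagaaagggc
Hoxd3 promoter (chr2:74711743-74712042, plus strand): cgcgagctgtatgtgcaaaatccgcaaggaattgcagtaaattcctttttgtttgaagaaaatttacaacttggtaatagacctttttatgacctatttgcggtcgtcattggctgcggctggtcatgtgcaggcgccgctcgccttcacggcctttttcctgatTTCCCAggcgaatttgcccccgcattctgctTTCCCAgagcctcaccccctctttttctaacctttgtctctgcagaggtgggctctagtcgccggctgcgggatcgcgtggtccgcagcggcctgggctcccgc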

How the data were processed

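Groups and replicate numbers came from the labels. Hox genes and the gene lists were chosen with earlier results of these data known. Per the file headers, the authors deposited FPKM per sample to 2 decimals and, from a DEGseq comparison, a log2 fold change and a q-value. Bowtie 0.12.2 and mm8 stand in the submitters' processing notes, but the table's positions are those of GRCm38, and all 39 Hox rows overlap the RefSeq gene of the same ID there. Not given in the sources used here are the program behind the FPKM and how strand and shared reads were treated. Some genes of the lists are not reported here. A set of 27 columns on pairs of samples was not used.

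Genes that reached 1 FPKM in 3 or more libraries (13765 of 19659 with values) were compared on log2(FPKM + 1), which understates changes of low genes, with limma 3.58.1 (R 4.3.3, mean-variance trend, two-sided). The test was first run on simulated data. Values per sample were given for called Hox genes, the 3 highest of each cluster, and paralogue groups 10 and 11. From each list, called members and up to 4 with the smallest p could be named, and Hoxa3, Hoxa5, Hoxb2, Hoxb5, Hoxb7, Hoxc5, Hoxd3 and Hoxd4 were given values after these were seen. The table holds no counts. Depth was estimated from the steps between low FPKM, where 76.7% to 79.4% of low values came within 0.15 of a whole number of fragments (30.0% by chance) once 120 bases were taken off each length. Alternatives were a pseudocount of 0.1, no filter, at least 1 FPKM in all 6 libraries, median-ratio scaling, limma's robust option, a block for the replicate number, and leaving out single libraries. A term for the libraries with adrenal markers under 10 FPKM was added after seeing the data. Tables and figures used Python 3.11.15 with pandas 2.3.3 and matplotlib 3.10.9.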

Additional observations from a re-analysis of the deposited data

How the results depend on the processing

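Over 13 alternatives and 29 Hox genes, 349 of 377 results stayed on their side of the threshold with their direction, 9 lost it (all Hoxa7), 5 gained it and 14 changed sign. The number of Hox genes called lower was 5, and 4 to 6 over all alternatives (4 to 5 with a library left out). The 4 Hoxc calls were present in all 13. The median of the tested Hox genes was -0.16, and -0.244 to -0.122 with a library left out. Hox genes called higher went from 0 to 1 (Hoxb2) without NICD2 replicate 3. Calls over all genes ranged from 603 to 955 with a library left out, against 1210. Called members of the pathway lists went from 5 to 8 with the stricter filter and to 8 with the robust option, and to 2 to 4 with a library left out (2 without wild type replicate 2, and 3 without wild type replicate 3, NICD2 replicate 2 or NICD2 replicate 3). Each leave-out tests fewer samples.

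Hox genes that changed sign had small fold changes, and none was called in the settings where it did. With a library left out, fold changes ranged from -0.249 to 0.000 for Hoxa4, from -0.056 to 0.014 for Hoxa10, from -0.102 to 0.020 for Hoxa11, from -0.176 to 0.144 for Hoxb4, from -0.086 to 0.108 for Hoxb6, from -0.048 to 0.039 for Hoxb7 and from -0.103 to 0.123 for Hoxb8. The sign turned without wild type replicate 1 for Hoxa4, Hoxa10, Hoxa11, Hoxb4 and Hoxb6. It also turned without wild type replicate 2 for Hoxb6, for Hoxb8 when wild type replicate 3 or NICD2 replicate 1 was left out, without NICD2 replicate 2 for Hoxa10, Hoxb4 and Hoxb7, and without NICD2 replicate 3 for Hoxa11 and Hoxb6. With median-ratio scaling Hoxb6 went to 0.001. The cause was not tested.

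The replicate numbers are shared by the groups, but same-numbered samples did not deviate together (r across genes of -0.033, 0.059 and -0.045), so they do not pair the samples. With the replicate block 1055 genes were called, and 4 Hox genes were lower, Hoxa7 being lost (adjusted p 0.0684), as was Meis2 (0.0533). Depth limits genes near 1 FPKM most, such as Hoxd3 and Hoxc5.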
